A study of Mus musculus with 1016 samples.

Results

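Single blastomeres of 4-cell embryos were compared with single blastomeres of 2-cell embryos for which bins of the genome had already been copied when the cell was collected in S phase. The deposited replication states hold 57 cells labelled 4-cell and 66 labelled 2-cell, and the comparison used those with a replication score, the percentage of called bins in the replicated state, of 10 to 90. This left 55 4-cell and 63 2-cell blastomeres, 118 of the 714 cells within that range in the whole series. The 4-cell blastomeres left out scored 7.75 and 9.60, and the lowest and highest retained scored 13.7 and 85.01. The 3 2-cell blastomeres left out scored from 90.3 to 99.7, and the lowest and highest retained scored 20.5 and 87.6.

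The series measured replication timing (RT) by single-cell Repli-seq, in which low-coverage sequencing of the DNA of a single cell reads copy number along the chromosomes. All embryos compared were (C57BL/6J x CBA) x DBA/2J hybrids, came from superovulated F1 females mated with DBA/2J males, received no inhibitor, and were cultured in KSOM medium from the zygote until collection. The 4-cell blastomeres were collected at 50 (7 cells), 51 (3), 52 (15), 53 (4), 54 (16) and 56 h (10) after the injection of human chorionic gonadotropin that triggers ovulation. The 2-cell blastomeres were collected at 32 (5 cells), 33 (9), 35 (21), 37 (8), 38 (7), 39 (7) and 40 h (6).

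DNA is copied in a set order in most somatic cells, with gene-rich, GC-rich chromatin of the nuclear interior early in S phase and gene-poor chromatin at the nuclear lamina late. In the mouse embryo the main wave of zygotic genome activation takes place at the 2-cell stage, so the S phase of the 4-cell stage is the first to begin after it. Because each bin is either copied or not, the share of cells in which a bin is replicated is high for bins that are copied early and low for bins that are copied late.

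The labels do not tie a cell to an embryo, a female or a collection day, so each stage was treated as 1 pooled sample, no difference was tested, and 95% exact Clopper-Pearson intervals cover counting error only. The spread between collection hours is given instead. Each bin had been scaled to its mean over the cells of its stage before states were called, so a copy number that all cells of a stage share leaves no trace. States of genomic DNA carry no expression marker by which the stage of a cell could be checked. The study's quality table passed 50 of the 55 4-cell and 55 of the 63 2-cell blastomeres, where cells that it marked as flagged are counted as passed. In 1 4-cell and 3 2-cell blastomeres, none of them passed, the state never changed within a chromosome. A chromosome was left uncalled in 2 4-cell and 4 2-cell blastomeres. The files hold states and no reads, so the sequencing depth of a cell is not known from them. Medians of 46337 bins in 4-cell and 46491 bins in 2-cell blastomeres were called, and 46296 of the 49264 bins of 50 kb were called in at least 50% of the cells of each stage and used.

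The 4-cell blastomeres had a median replication score of 40.6, against 50.2 in 2-cell blastomeres. The mean share of cells replicated per bin was accordingly 40.8% at the 4-cell stage and 49.4% at the 2-cell stage. This mean difference of -8.63 percentage points, which follows the difference in replication score, was subtracted, and what remains for a bin, window or gene is called its relative difference (4-cell minus 2-cell).

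The genome was more sharply divided into often and seldom replicated regions at the 4-cell stage. The share of cells replicated had an SD over bins of 19.97 percentage points in 4-cell and 14.2 in 2-cell embryos. The SD was larger at the 4-cell stage on 19 of 19 chromosomes, which come from the same cells and are not separate observations. Over single collection hours the SD over windows of 2 Mb ran from 16.2 to 23.2 points in 4-cell embryos. In 2-cell embryos it ran from 12.1 to 19.3 points, so the stages overlapped. Bins replicated in more than 80% of cells made up 4.73% of the bins in 4-cell and 0.136% in 2-cell embryos. Bins replicated in fewer than 20% of cells made up 10.3% of the bins in 4-cell and 2.86% in 2-cell embryos. After correction for uneven sampling of S phase, which averages the share over 16 overlapping intervals of replication score into an RT value between 0 and 1, values of 0.4 to 0.8 covered 59.2% of bins in 4-cell and 76.9% in 2-cell embryos. The RT value lay farther from 0.5 at the 4-cell stage in 61.4% of bins. The gap between the stages lay mainly in cells with low scores. The SD over windows of 2 Mb was 21.9 points in 4-cell and 9.95 in 2-cell embryos at scores of 10 to 37 (23 4-cell and 13 2-cell blastomeres), 15.2 in 4-cell and 13.6 in 2-cell embryos at 37 to 63, and 15.2 in 4-cell and 14.2 in 2-cell embryos at 63 to 90.

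Over 1172 windows of 2 Mb, the shares of the stages correlated with a Spearman coefficient of 0.64 (a description across windows, whose bins share cells and neighbours). A window was called where its relative difference reached 20 points in either direction. At the 4-cell stage 98 windows were higher (8.36% of those measured) and 24 were lower (2.05%). Their median shares were 71.2% in 4-cell and 50.4% in 2-cell embryos for the higher windows, and 26.6% in 4-cell and 60.1% in 2-cell embryos for the lower windows. Higher windows lay on all 19 chromosomes in 70 separate stretches of at most 4 windows, and lower windows lay on 12 chromosomes in 23 stretches of at most 2 windows. With RT values in place of shares, 40 windows (3.41%) were higher and 7 (0.597%) were lower by the same 20 points, and all 98 and all 24 windows kept the sign of their difference. Without subtraction of the mean difference 27 windows were higher and 188 lower. Among cells with scores of 37 to 63 alone 28 were higher and 36 lower. In 6 of the 98 higher windows every 4-cell hour lay above every 2-cell hour, against 0.683% of all windows, and in 5 of the 24 lower windows every 4-cell hour lay below every 2-cell hour, also against 0.683%. Among hours with at least 5 cells, the 4-cell hours lay above all 2-cell hours in 52 of the 98 higher windows, against 6.14% of all windows. They lay below all 2-cell hours in 12 of the 24 lower windows, against 2.65% of all windows. The called windows were chosen for their difference in these same cells, so a higher rate than over all windows is built in.

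**Figure D1:**
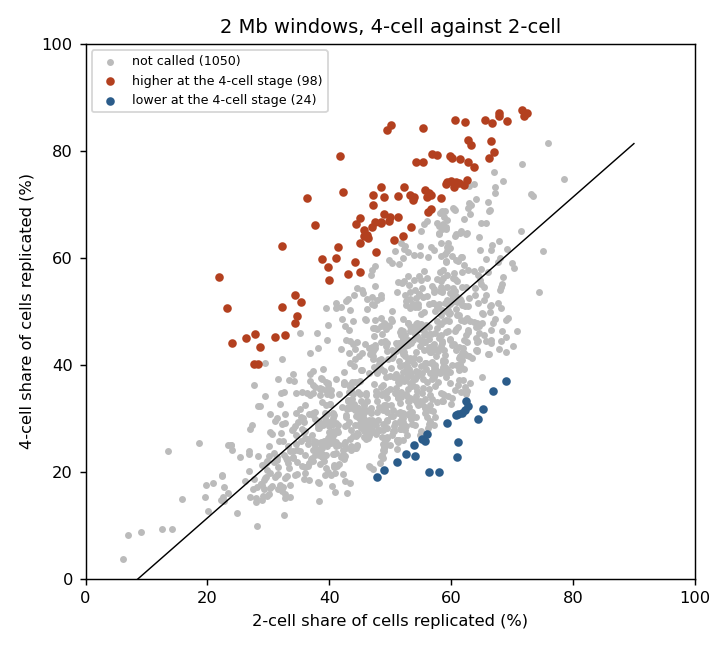
Share of cells replicated in 1172 windows of 2 Mb in 4-cell embryos (vertical axis, %) against 2-cell embryos (horizontal axis, %). Each point is a window, the line marks the mean difference between the stages, and the 98 higher and 24 lower windows lie at least 20 points from it.

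The higher windows were rich in genes. The 98 higher windows had a median of 43 protein-coding genes and a GC content of 46.7%, the 24 lower windows had 6 genes and 41.4% GC, and all windows had 12 genes and 41.7% GC. The lower windows were thus poor in genes without being poor in GC. Of the 98 higher windows, 86 were among the 235 windows with the most genes (25 to 117 each), and none of the 24 lower windows was.

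The 235 gene-richest windows were replicated in a mean of 54.5% of 4-cell and 47.5% of 2-cell blastomeres, a relative difference of 15.6 points. The 234 gene-poorest windows (0 to 4 genes) were replicated in 27.3% of 4-cell and 43.9% of 2-cell blastomeres, a relative difference of -7.97 points. At the 2-cell stage the gene-richest windows were thus no more often replicated than windows of 15 to 25 genes (53.7%) or of 9 to 15 genes (52.03%), whereas the shares at the 4-cell stage increased with gene number through every group. Across windows the Spearman coefficient of the share with gene number was 0.61 in 4-cell and 0.17 in 2-cell embryos. Over single collection hours it ran from -0.16 to 0.70 in 4-cell and from -0.18 to 0.31 in 2-cell embryos, so the stages overlapped. At scores of 10 to 37, 37 to 63 and 63 to 90 it was 0.73, 0.50 and -0.11 in 4-cell embryos. In 2-cell embryos it was -0.04, 0.23 and -0.04 in these bands. With GC content the coefficient over all cells was 0.68 in 4-cell and 0.32 in 2-cell embryos, and with CpG density 0.72 in 4-cell and 0.40 in 2-cell embryos. The coefficient with the fraction of sequence masked as repeats was -0.55 in 4-cell and -0.54 in 2-cell embryos, so that property separated windows to a like degree in both. These are descriptions over windows, and gene number, GC and CpG density vary together.

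**Figure D2:**
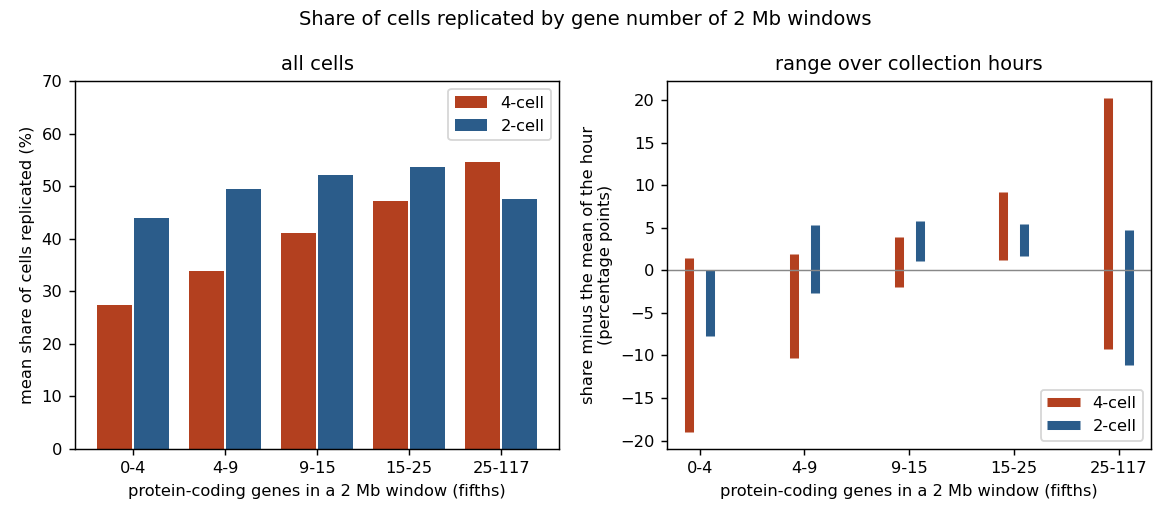
Mean share of cells replicated (left, %) in 5 groups of 2 Mb windows ordered by their number of protein-coding genes, and the range over collection hours of that share minus the mean of the hour (right, percentage points), for 4-cell and 2-cell embryos. The 4-cell share increases to 54.5% in the gene-richest group while the 2-cell share there is 47.5%, and the hour ranges of the stages overlap.

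Gene number and GC content could be separated in part. Among the 235 windows richest in GC, those with more than 33 genes had a relative difference of 21.98 points and the others 4.06 points, and the windows with more than 33 genes were replicated in 62.6% of 4-cell and 49.3% of 2-cell blastomeres. Among the 234 windows poorest in GC, those with more than 2 genes differed by -6.06 points and the others by -8.42. Conversely, within the 235 gene-richest windows those above 45.9% GC differed by 20.8 points and the others by 10.48, but within the 234 gene-poorest windows GC content made little difference (-8.23 points above 37.9% GC and -7.70 below it). The same gradient was present at single bins. Bins that overlap no protein-coding gene were replicated in 31.5% of 4-cell and 46.3% of 2-cell blastomeres. Bins with 4 or more genes were replicated in 59.4% of 4-cell and 47.8% of 2-cell blastomeres, and 57.6% of these 1092 bins were higher by at least 20 points, against 12.9% of all bins. Of these bins 0.916% were lower, against 7.68% of all bins.

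The gradient was resolved in single cells by taking, for each cell, the percentage of replicated bins in the gene-richest windows minus that in the gene-poorest windows. This contrast was above 0 in 42 of 55 4-cell and 31 of 63 2-cell blastomeres and reached 20 points in 35 4-cell and 11 2-cell blastomeres. Its median was 32.3 points in 4-cell (range -19.9 to 72.97) and -0.37 points in 2-cell blastomeres (range -32.6 to 50.03). The ranges overlapped widely, and the difference was concentrated in cells with low replication scores.

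Among cells with a replication score of 10 to 37, all 23 4-cell blastomeres had a contrast of at least 20 points (23.5 to 59.4, median 44.8). Among the 13 2-cell blastomeres of the same scores the contrast ran from -23.2 to 39.95 (median -4.92) and reached 20 points in 1. At these low scores every 4-cell blastomere had thus copied more of its gene-rich than of its gene-poor windows, as had 5 of the 13 2-cell blastomeres. The gene-richest windows were replicated in 51.5% of these 4-cell and 25.9% of these 2-cell blastomeres, and the gene-poorest in 7.08% of the 4-cell and 27.6% of the 2-cell blastomeres. At scores of 37 to 63 the median contrast was 14.3 points in 25 4-cell blastomeres and 3.76 points in 40 2-cell blastomeres, and 12 of the 4-cell and 9 of the 2-cell blastomeres reached 20 points. At scores of 63 to 90 the medians were -8.64 points in 7 4-cell and -7.79 points in 10 2-cell blastomeres. The mean relative difference of the gene-richest windows was 27.9, 8.97 and -0.43 points in the bands of low, middle and high score.

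**Figure D3:**
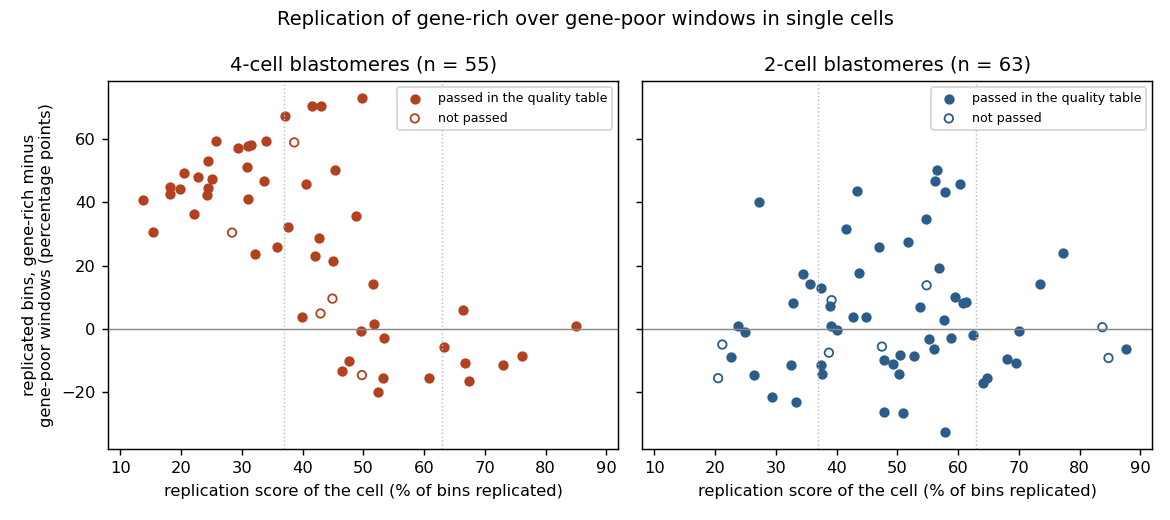
Percentage of replicated bins in gene-rich minus gene-poor windows (vertical axis, percentage points) against replication score (horizontal axis, %) for each of 55 4-cell (left) and 63 2-cell blastomeres (right). Open circles are cells that the quality table did not pass, and dotted lines mark scores of 37 and 63. All 23 4-cell blastomeres below a score of 37 lie above 20 points, against 1 of 13 2-cell blastomeres.

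Collection hours differed within each stage. The median contrast was 4.88, 1.55, 30.4, -9.95, 47.9 and 36.5 points in 4-cell blastomeres of 50, 51, 52, 53, 54 and 56 h. The 4 cells of 53 h, all negative, were also those with the highest mean share of replicated bins (69.9%). In 2-cell blastomeres of 32, 33, 35, 37, 38, 39 and 40 h the median contrast was 0.54, 1.05, 9.06, 1.56, -1.07, -10.9 and -9.52 points. The mean replication score of the hours ran from 34.9 to 69.98 in 4-cell and from 42.95 to 60.2 in 2-cell blastomeres without following the order of the hours, and its part in the contrast was not tested.

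The 6 windows with the highest relative differences held from 44 to 101 protein-coding genes each. A window was counted as replicated in a cell where most of its called bins were. The window at chr17:28000001-30000000 (GRCm38), with Fkbp5, a co-chaperone of steroid receptors, was replicated in 44 of 54 4-cell (81.5%, 95% CI 68.6 to 90.7) and 23 of 62 2-cell blastomeres (37.1%, 25.2 to 50.3). Its relative difference was 45.99 points, the highest of all windows. Relative to the mean of the hour its share was 33.5, 25.4, 37.9, -5.55, 47.6 and 48.9 points at the 4-cell hours in order, and -24.5, 15.5, -0.67, -10.4, -17.3, -30.1 and -11.4 points at the 2-cell hours. The 4-cell hours were thus above all 2-cell hours except at 53 h, which held 4 cells.

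Windows on chromosomes 7, 5, 4 and 17 followed. The window at chr7:28000001-30000000 holds Ryr1, the calcium release channel of skeletal muscle, and was replicated in 40 of 55 4-cell and 24 of 62 2-cell blastomeres (relative difference 43.5). The window at chr5:122000001-124000000 holds Kdm2b, a histone demethylase that binds CpG islands, and the start of Cux2, a homeobox factor of cortical neurons. It was replicated in 49 of 54 4-cell and 31 of 60 2-cell blastomeres (43.2). The window at chr4:132000001-134000000 holds Arid1a, a subunit of the SWI/SNF chromatin remodeller, and Eya3, and was replicated in 48 of 55 4-cell and 30 of 61 2-cell blastomeres (43.01). The window at chr17:24000001-26000000 holds Ift140, a subunit of the transport machinery of cilia, and was replicated in 43 of 55 4-cell and 24 of 61 2-cell blastomeres (38.8). Every one of these windows was replicated in a larger part of the 4-cell than of the 2-cell blastomeres. This follows from their choice by the highest relative differences, although the mean share of the genome was lower in 4-cell blastomeres.

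At scores of 10 to 37 the stages were farther apart. The window with Kdm2b was replicated in 23 of 23 4-cell and 2 of 11 2-cell blastomeres of these scores, that with Arid1a in 23 of 23 4-cell and 3 of 13 2-cell blastomeres, and that with Fkbp5 in 22 of 23 4-cell and 4 of 13 2-cell blastomeres. At scores of 37 to 63 the window with Kdm2b was replicated in 20 of 25 4-cell and 21 of 39 2-cell blastomeres.

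The remaining window, chr7:4000001-6000000 (43.1 points), was late in 2-cell embryos. It was replicated in 32 of 55 4-cell blastomeres (58.2%, 44.1 to 71.3) and 13 of 63 2-cell blastomeres (20.6%, 11.5 to 32.7), and only 23 of its 40 bins were used. It holds Ptprh, a receptor tyrosine phosphatase, and Zfp580, a zinc finger gene with the highest relative difference of the genes named here. Zfp580 was replicated in 46 of 55 4-cell (83.6%, 71.2 to 92.2) and 12 of 63 2-cell blastomeres (19.05%, 10.2 to 30.9), a relative difference of 73.2 points, and its hours did not overlap between the stages. The pheromone receptor gene Vmn1r55 nearby was replicated in 43 of 55 4-cell and 12 of 63 2-cell blastomeres (67.8 points). Both were replicated in 18 of 25 4-cell and 3 of 40 2-cell blastomeres at scores of 37 to 63, so that here the stages differed outside the low scores too.

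The 6 windows with the lowest relative differences held from 3 to 15 genes. The window at chr8:14000001-16000000, which contains part of the giant gene Csmd1, was replicated in 9 of 55 4-cell (16.4%, 7.77 to 28.8) and 41 of 61 2-cell blastomeres (67.2%, 53.998 to 78.7), a relative difference of -29.6 points. Its share relative to the hour was -21.5, 2.87, -23.3, -25.6, -15.5 and -15.6 points at the 4-cell hours and 8.49, -4.44, 10.9, 13.1, 11.6, 28.5 and 13.98 points at the 2-cell hours. Only the 51 h cells, 3 in number, overlapped with the 2-cell hours. Within it Dlgap2, a scaffold protein of the synapse, was replicated in 14 of 54 4-cell and 48 of 62 2-cell blastomeres.

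The window at chr13:70000001-72000000 (-29.3 points) was replicated in 11 of 55 4-cell and 35 of 62 2-cell blastomeres. It holds Irx1, a homeobox factor of the Iroquois family, which was replicated in 10 of 55 4-cell (18.2%, 9.08 to 30.9) and 43 of 63 2-cell blastomeres (68.3%, 55.3 to 79.4). The relative difference of Irx1, -41.4 points, was the lowest of the genes named here. At scores of 10 to 37 Irx1 was replicated in 0 of 23 4-cell blastomeres (95% CI 0 to 14.8%) and in 7 of 13 2-cell blastomeres. The shares of the window overlapped between the hours of the stages.

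In the window around Bcl11b, a transcription factor of T lymphocytes (chr12:106000001-108000000, -27.9 points), no 4-cell hour overlapped with any 2-cell hour. The window was replicated in 8 of 53 4-cell and 36 of 61 2-cell blastomeres. Relative to the hour it lay at -24.4, -10.46, -13.5, -34.9, -30.7 and -11.1 points at the 4-cell hours and at 19.99, 14.9, 5.14, -3.51, 11.2, -6.87 and 16.1 points at the 2-cell hours. Bcl11b itself, at the edge of its window, differed by -7.34 points. The windows at chr3:82000001-84000000 (-25.9 points), with the guanylate cyclase subunit gene Gucy1a1, and chr16:74000001-76000000 (-24.8 points), with most of the axon guidance receptor gene Robo2, were also among the 6. The window of Gucy1a1 was replicated in 15 of 54 4-cell and 41 of 60 2-cell blastomeres, and that of Robo2 in 17 of 55 4-cell and 45 of 62 2-cell blastomeres. Unlike the higher windows, the lower windows differed as much at scores of 37 to 63: the 24 windows had a mean relative difference of -25.8 points at scores of 10 to 37 and -24.6 points at 37 to 63, against 46.9 and 16.4 points in the 98 higher windows. At scores of 63 to 90 the means were -5.37 points in the lower windows, 16 of 24 of them below 0, and 4.60 points in the higher windows, 63 of 98 of them above 0. These windows were chosen for their difference, and the values describe at which replication scores it lay.

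**Figure D4:**
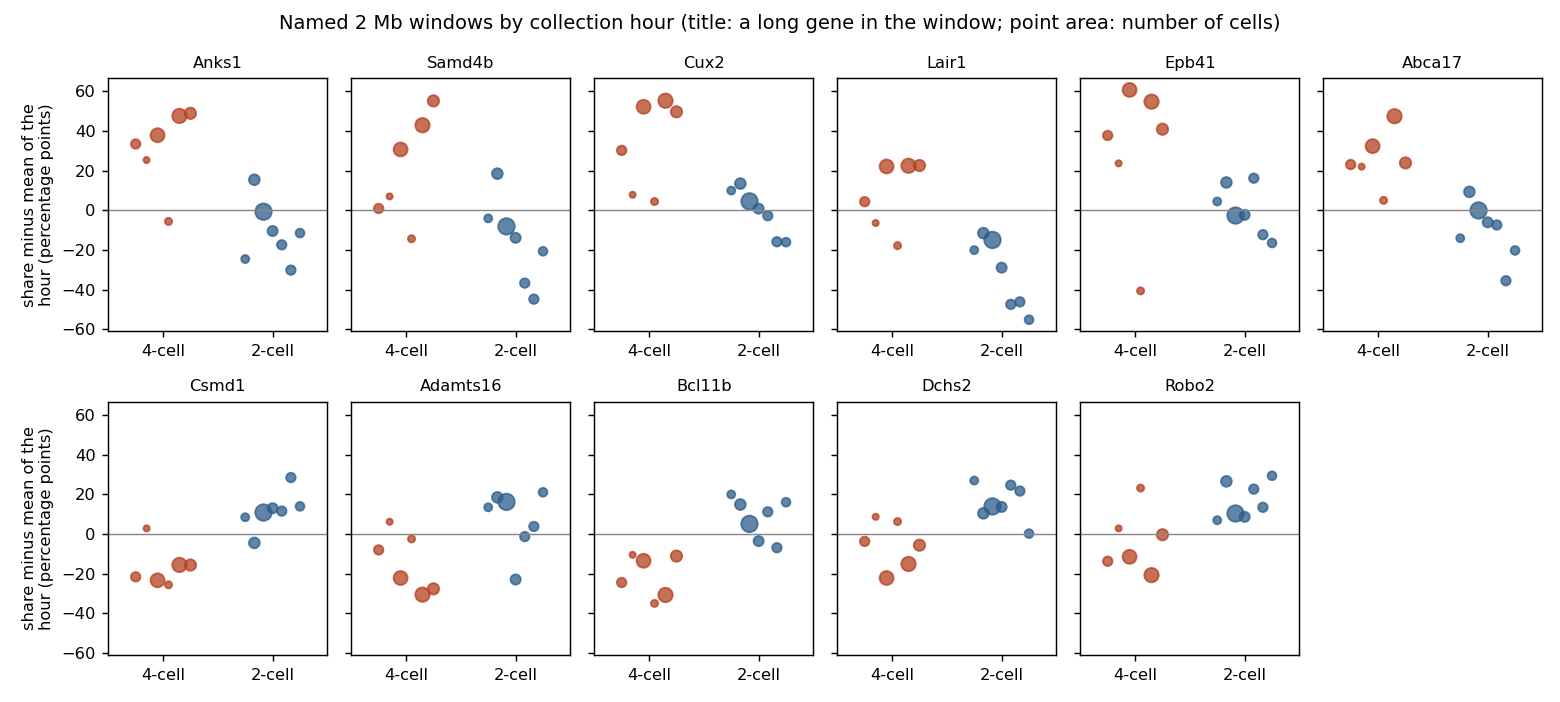
Share of cells replicated minus the mean of the hour (vertical axis, percentage points) in the 6 highest (top row) and 5 of the 6 lowest windows (bottom row), for 4-cell (left in each panel) and 2-cell embryos (right). Each point is a collection hour, in order from left to right within a stage, and its area is proportional to the number of cells. Titles give a long gene of each window (Anks1 stands for the window with Fkbp5, Samd4b for Ryr1, Cux2 for Kdm2b, Lair1 for Ptprh, Epb41 for Arid1a, Abca17 for Ift140 and Dchs2 for Gucy1a1). In the window named for Bcl11b no 4-cell hour overlaps with a 2-cell hour.

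The named windows differed in base composition. To show what a GC content of 49.3% with 15.3 CpG per kb (the highest window), of 44.3% with 10.1 (the lowest) and of 37.2% with 6.16 (the window of Robo2, the poorest of the 12 in CpG) looks like in the sequence itself, the stretch of 300 bases outside exons nearest to its window in GC and CpG content is given for each, on the plus strand of RefSeq's GRCm38 (mm10). The first and second lie between protein-coding genes and the last in an intron of Robo2. Capitals mark the CpG dinucleotides, of which there are 5, 3 and 2.
chr17:28118501-28118800: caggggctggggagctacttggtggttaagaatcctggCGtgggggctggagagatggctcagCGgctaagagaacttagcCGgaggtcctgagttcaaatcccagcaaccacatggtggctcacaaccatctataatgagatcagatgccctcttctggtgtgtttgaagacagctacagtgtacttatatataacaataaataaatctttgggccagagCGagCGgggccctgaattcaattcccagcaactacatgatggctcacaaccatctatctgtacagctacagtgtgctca
chr8:14095101-14095400: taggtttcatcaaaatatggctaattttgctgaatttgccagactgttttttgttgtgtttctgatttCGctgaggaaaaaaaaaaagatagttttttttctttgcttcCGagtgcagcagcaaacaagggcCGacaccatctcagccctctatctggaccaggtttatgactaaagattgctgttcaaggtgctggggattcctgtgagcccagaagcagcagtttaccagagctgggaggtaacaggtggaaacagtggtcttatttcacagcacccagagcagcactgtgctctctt
chr16:74017701-74018000: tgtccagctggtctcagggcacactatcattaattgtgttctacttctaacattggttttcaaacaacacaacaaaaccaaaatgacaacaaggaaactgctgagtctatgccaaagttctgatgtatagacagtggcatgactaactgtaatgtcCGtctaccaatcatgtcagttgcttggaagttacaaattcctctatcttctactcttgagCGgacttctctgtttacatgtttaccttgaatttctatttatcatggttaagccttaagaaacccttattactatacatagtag

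The 19859 protein-coding genes with states had a median relative difference of 11.4 points, with median shares of 54.5% in 4-cell and 52.4% in 2-cell embryos. Of these genes 6972 (35.1%) were higher by at least 20 points and 486 (2.45%) were lower, and 72.3% had a relative difference above 0. Lists of genes are set beside these values. For the genes named below, the hours of the stages overlapped unless stated otherwise. How often hours do not overlap among all genes is not given.

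Housekeeping genes lay above the other lists, with a median relative difference of 30.9 points. Of 30 genes, 24 were higher and none was lower, and their median share was 72.7% in 4-cell and 49.2% in 2-cell embryos. Relative to the mean of the hour, the list ran from 0.90 to 43.7 points over the 4-cell hours. Over the 2-cell hours it ran from -21.9 to 7.12 points, so the stages overlapped. Gapdh, a glycolytic enzyme gene, was replicated in 42 of 55 4-cell (76.4%, 62.98 to 86.8) and 24 of 63 2-cell blastomeres (38.1%, 26.1 to 51.2), a relative difference of 46.9 points. Its hours ran from -44.9 to 56.2 points in 4-cell and from -50.4 to 12.7 in 2-cell blastomeres. Actb, the gene of cytoplasmic actin, was replicated in 40 of 55 4-cell and 27 of 63 2-cell blastomeres (38.5 points). Sdha, a subunit of succinate dehydrogenase, had the lowest difference of the list (8.16 points). At scores of 10 to 37 Actb was replicated in 20 of 23 4-cell and 1 of 13 2-cell blastomeres and Gapdh in 20 of 23 4-cell and 4 of 13 2-cell blastomeres. The median relative difference of the list was 58.02, 16.1 and 5.51 points in the bands of low, middle and high score, against 19.6, 7.77 and -0.92 points for all genes.

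Genes of ribosome biogenesis (19 of 28 higher, none lower, median 24.3 points) and of DNA replication (22 of 42 higher, none lower, median 20.6 points) also lay above all genes. Nop2, a nucleolar rRNA methyltransferase, was replicated in 41 of 55 4-cell and 24 of 63 2-cell blastomeres (45.1 points). It lies beside Gapdh on chromosome 6. Ticrr, a factor needed for origins to fire, was replicated in 48 of 55 4-cell and 31 of 63 2-cell blastomeres (46.7 points) and in 23 of 23 4-cell and 4 of 13 2-cell blastomeres at low scores. Orc2, a subunit of the origin recognition complex, had the lowest value of the replication factors (-7.29 points). Pcna, the sliding clamp of DNA polymerases, was often replicated at both stages, in 42 of 52 4-cell and 45 of 62 2-cell blastomeres. Rif1, which delays the firing of late origins, was replicated in 31 of 52 4-cell and 35 of 60 2-cell blastomeres (9.78 points), below the median of all genes.

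Of 19 genes of the 2-cell genome activation programme only 9 had states, and those without were the listed Zscan4, Tcstv and Tdpoz genes, Obox3, Obox5 and Duxf3. Of the 9, 6 were higher and none was lower, with a median relative difference of 27.1 points, next below the housekeeping genes. Hspa1a and Hspa1b, both among the 6, share a bin and cannot be counted as separate observations. Relative to the mean of the hour, the list ran from -19.9 to 31.2 points over the 4-cell hours. Over the 2-cell hours it ran from -33.1 to -9.55 points, so the stages overlapped. The heat shock gene Hspa1b, transcribed at the onset of genome activation, was replicated in 29 of 55 4-cell (52.7%, 38.8 to 66.3) and 12 of 62 2-cell blastomeres (19.4%, 10.4 to 31.4), a relative difference of 41.998 points. Its 2-cell share lay far below the median of all genes at that stage (52.4%). Zfp352, another gene of the 2-cell programme, ran the other way, with 14 of 55 4-cell and 30 of 63 2-cell blastomeres (-13.5 points).

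Genes of the oocyte had a median of 17.0 points (9 of 20 higher, none lower). Gdf9, an oocyte growth factor, was replicated in 47 of 54 4-cell and 37 of 63 2-cell blastomeres, and its hours did not overlap. Zp3, a protein of the zona pellucida, was replicated in 41 of 55 4-cell and 32 of 63 2-cell blastomeres. Zar1, a maternal effect gene, had the lowest value of the list (-14.6 points). Of the DNA methylation genes, 3 of 12 were higher, led by Uhrf1, which brings the maintenance methyltransferase to newly copied DNA (41 of 55 4-cell and 25 of 62 2-cell blastomeres, 42.8 points).

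Lineage regulators were mixed. The pluripotency list (7 of 20 higher, none lower) had a median of 13.1 points, close to that of all genes, and spanned from Pou5f1 (45.5 points) to Gbx2 (-16.0). Pou5f1, the factor also called Oct4, was replicated in 38 of 55 4-cell (69.1%, 55.2 to 80.9) and 20 of 62 2-cell blastomeres (32.3%, 20.9 to 45.3). Nanog was replicated in 41 of 55 4-cell and 40 of 63 2-cell blastomeres (19.7 points). The trophectoderm list (4 of 17 higher) and the primitive endoderm list (2 of 18 higher) had medians of 1.34 and 5.54 points, below that of all genes. Cldn4, a claudin of epithelial tight junctions, had 41.2 points and Cdx2, the trophectoderm factor, 16.9, whereas the keratin gene Krt7 had -9.93. Gata6, a primitive endoderm factor, had 16.7 points and Foxa2, a factor of later endoderm, -18.96. Foxa2 was replicated in 18 of 55 4-cell and 38 of 63 2-cell blastomeres, and at low scores in 0 of 23 4-cell (95% CI 0 to 14.8%) and 6 of 13 2-cell blastomeres.

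Genes of a cluster share bins and cannot be counted as separate observations. All 10 genes of the Hoxb cluster were higher (27.1 to 34.6 points), with shares of 62.96 to 72.2% in 4-cell and 44.4 to 49.2% in 2-cell embryos. The 9 genes of the Hoxd cluster lay between -13.7 and -11.9 points, with shares of 49.1 to 50.9% in 4-cell and 71.4% in 2-cell embryos. The Hoxa cluster (-4.42 to 2.85 points) and the Hoxc cluster (7.41 to 9.23 points) lay between. The 4 clusters, which encode the same family of body axis factors, thus ran in different directions, and the Hoxb cluster, which had been less often replicated than the Hoxd cluster in 2-cell embryos, was more often replicated in 4-cell embryos.

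The clustered protocadherins, cell adhesion proteins of neurons encoded in tandem on chromosome 18, were the lowest list, with a median of -18.99 points, 16 of 56 genes lower and 0 above 0. The median was -13.1 points with only the cells that passed the quality table, -3.13 points at scores of 37 to 63, and -8.94 points without the 2-cell blastomeres of 35 h. The alpha genes (-21.9 to -19.1 points) and beta genes (-21.9 to -17.4) had shares of 20 to 30.9% in 4-cell and 46.03 to 57.1% in 2-cell embryos, and the adjacent gamma genes lay at -4.22 to -3.16 points. The prolactin family, placental hormones on chromosome 13, had a median of -12.0 points (3 of 22 lower) and shares of 14.5% in 4-cell and 33.3% in 2-cell embryos. Its median was -13.0, -20.6 and 19.1 points in the bands of low, middle and high score. All 22 genes were above 0 at high scores, and the median 4-cell share was 0% at low scores. With RT values 7 of 22 were above 0. Long neuronal genes had a median of -9.16 points (2 of 36 lower, none higher), with 6 of 36 above 0 (against 72.3% of all genes). Their median was -5.73 points without the 4-cell blastomeres of 54 h. Robo2 was the lowest of them, replicated in 18 of 54 4-cell (33.3%, 21.1 to 47.5) and 42 of 63 2-cell blastomeres (66.7%, 53.7 to 78.05). The replication-dependent histone genes of the Hist1 cluster lay together near 3.06 points with 0 of 54 called.

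Receptor families of the nose were late at both stages. The 1071 olfactory receptor genes with states had a median share of 16.4% in 4-cell and 23.8% in 2-cell embryos and a median relative difference of 1.64 points. Of 325 vomeronasal receptor genes listed, only 211 had states, with a median share of 11.8% in 4-cell and 20.6% in 2-cell embryos (1.84 points). Of these, 8 were higher and 4 lower. Zinc finger genes of the Zfp class had a median of 15.1 points, with 137 of 324 higher and 3 lower. Zfp397 was the lowest (-23.5 points), replicated in 26 of 55 4-cell and 50 of 63 2-cell blastomeres, with no overlap of the hours. Beta-defensins had a median of 2.77 points (9 of 41 higher). Imprinted genes showed medians of 6.29 points (maternally expressed, 2 of 19 higher) and 6.48 points (paternally expressed, 4 of 24 higher). Both lists were led by the overlapping genes Igf2r and Airn on chromosome 17 (31.3 and 33.2 points), in which the hours of the stages did not overlap. The lowest were Meg3 (-16.5 points) and Rtl1 (-17.2 points), which lie close together on chromosome 12. Meg3 was replicated in 7 of 54 4-cell and 24 of 63 2-cell blastomeres.

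**Figure D5:**
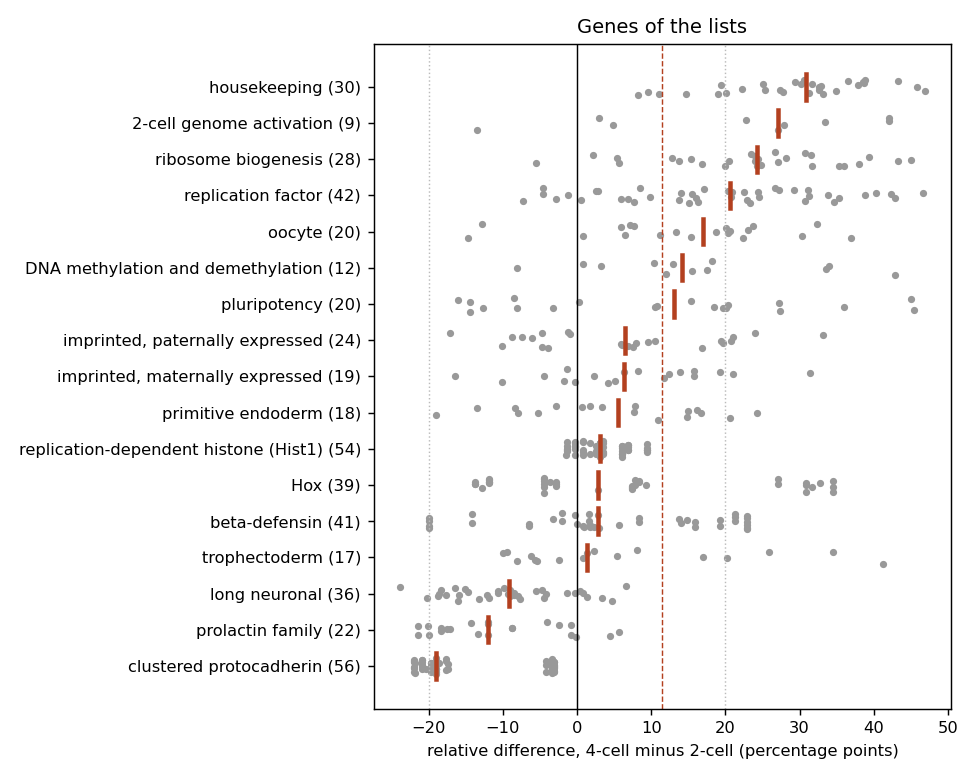
Relative difference (4-cell minus 2-cell, percentage points) of the genes of the lists, without the olfactory, vomeronasal and Zfp families, ordered by median. Each grey point is a gene, red bars are medians, the dashed line is the median of all protein-coding genes (11.4 points), dotted lines mark 20 points in either direction, and the number of genes with states is in parentheses.

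By chromosome, relative differences ran from 7.33 points on chromosome 11, replicated in 51.1% of 4-cell and 52.4% of 2-cell blastomeres, to -6.23 points on chromosome 13, replicated in 39.5% of 4-cell and 54.3% of 2-cell blastomeres. Chromosomes 4 (5.81), 17 (5.55) and 7 (4.21) were the next highest and chromosomes 18 (-5.88), 3 (-5.00) and 1 (-4.25) the next lowest. Chromosome 17 was the least replicated chromosome of 2-cell embryos (36.9% of 4-cell and 39.9% of 2-cell blastomeres). Over the 19 chromosomes the relative difference had a Spearman coefficient of 0.81 with genes per bin and 0.67 with GC content. The ranges over hours overlapped on all 19 chromosomes, so no chromosome stood apart from the spread between hours. With only the cells that passed the quality table the values were 6.25 points for chromosome 11, 1.24 for 4, -3.19 for 13 and -2.16 for 18, and at scores of 37 to 63 chromosome 11 lay at 2.10 points. Without the 2-cell blastomeres of 35 h chromosome 13 lay at -4.03 points and chromosome 18 at -2.95. Chromosome 11 held 13 of the 98 higher windows, chromosome 7 held 12 and chromosome 4 held 11, while chromosomes 1, 10, 13 and 18 held 1 each. Windows within 10 Mb of the first called end of a chromosome had a mean relative difference of 2.71 points, those within 10 Mb of the far end 1.62, and the rest -0.37.

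Bins were also divided at an RT value of 0.5 into early and late. At both stages 33.2% of bins were early and 38.1% were late. Another 21.4% were late at the 4-cell but early at the 2-cell stage, and 7.31% were early at the 4-cell but late at the 2-cell stage. Early bins thus made up 40.5% of the genome in 4-cell and 54.6% in 2-cell embryos, and more bins crossed towards late than towards early.

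Single 4-cell blastomeres resembled the pattern of their stage more closely than 2-cell blastomeres did. The correlation (Pearson, across bins) of a cell's states with the share of cells of its own stage, the cell itself left out, had a median of 0.478 in 4-cell (range -0.017 to 0.690) and 0.272 in 2-cell blastomeres (range -0.028 to 0.495). It was at least 0.5 in 26 of 55 4-cell blastomeres, all with a score under 50, and in 0 of 63 2-cell blastomeres. At scores of 10 to 37 the medians were 0.576 in 4-cell and 0.059 in 2-cell blastomeres. At 37 to 63 they were 0.265 in 4-cell and 0.291 in 2-cell blastomeres, and at 63 to 90 they were 0.171 in 4-cell and 0.260 in 2-cell blastomeres. The 4-cell value was thus the higher at low scores and not at middle or high scores. The share of low-scoring cells also differed, with 23 of 55 4-cell and 13 of 63 2-cell blastomeres, and its part in the likeness was not tested.

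Pairs of cells, which do not depend on the stage's share, had a median correlation of 0.108 within the 4-cell stage, 0.0595 within the 2-cell stage and 0.0673 across them. Correlations of at least 0.5 occurred in 69 of 1485 pairs of 4-cell and 1 of 1953 pairs of 2-cell blastomeres, and in 0 of 3465 mixed pairs. The pairs were pooled over all scores, so they carry the same difference in low-scoring cells, and its part was not tested. The correlation with the own stage exceeded that with the other stage in 38 of 55 4-cell and 48 of 63 2-cell blastomeres. Likeness under 0.1 to the own stage was found in 8 4-cell and 12 2-cell blastomeres, of which 3 4-cell and 4 2-cell blastomeres had not passed the quality table.

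The length of replicated domains overlapped widely between the stages. Replication state changed 47.5 times per 100 Mb in the median 4-cell and 50.03 times in the median 2-cell blastomere, with quartiles of 43.1 to 54.1 in 4-cell and 43.5 to 56.3 in 2-cell blastomeres. The mean replicated run of a cell had a median of 1.45 Mb in 4-cell and 1.81 Mb in 2-cell blastomeres. At scores of 10 to 37 the medians were 1.16 Mb in 4-cell and 1.30 Mb in 2-cell blastomeres, and at 37 to 63 they were 1.66 Mb in 4-cell and 1.82 Mb in 2-cell blastomeres. The ranges overlapped in both bands.

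Between neighbouring stages, the windows differed by an SD of 7.22 points from zygotes to 2-cell embryos, 12.4 from 2-cell to 4-cell and 9.09 from 4-cell to 8-cell embryos. The threshold of 20 points was reached in 0.682%, 10.4% and 2.90% of windows in these steps, and the Spearman coefficients of the window shares were 0.82, 0.64 and 0.87. With RT values, which correct for uneven sampling of S phase, the SDs were 7.07, 9.81 and 8.94 points. The threshold was then reached in 0.597%, 4.01% and 1.45% of windows. Consecutive steps share a stage and no difference between them was tested.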

How the data were processed

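The deposited tables give, for each cell and each 50 kb bin of chromosomes 1 to 19 (mm10), the replication state that the authors called, 1 for replicated, 0 for not replicated and empty where no call was made. Per the submitters' processing notes Bowtie2 2.3.5, SAMtools 1.9 and bedtools 2.29.0 were used. Per the study's methods each bin was divided by its average over the cells of a stage before the authors called states. Reads are not in these tables, so depth per cell was not assessed.

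All cells with a replication score of 10 to 90 entered. Bins called in at least 50% of the cells of each stage were used. Shares were averaged over 2 Mb windows of at least 20 used bins, and the mean difference over bins was subtracted. RT is the mean share over 16 score intervals, 35 wide and 4.33 apart. A gene takes the mean of its bins (GENCODE M21). With 1 pooled sample per stage no test was run. Named windows are the 6 highest and 6 lowest at least 4 Mb apart. Of the lowest windows 1 is not reported here. Named genes are the highest and lowest of each list, 10 well known genes and up to 3 of the longest genes in each named window, and any other gene was named after its values were seen. Windows, lists and members were chosen with earlier results of these data known. The quality table served only as a filter. Alternatives covered the cells, score limits, bins, window size, centring, threshold, RT in place of shares and each collection hour left out. The code was tested on simulated data. Python 3.11.15, NumPy 2.4.6, pandas 2.3.3, SciPy 1.17.1 and Matplotlib 3.10.9 were used.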

Additional observations from a re-analysis of the deposited data

How the results depend on the processing

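Of 447 alternative values of 23 results, 434 stayed within the spread set for the result or within 1.5 times a count. Another 13 moved and 0 reversed, but a reversal was counted only for chromosome means and gene lists. For chromosomes, gene lists, SDs and coefficients with gene number the spread was that between hours, taken over windows for the SDs. The spread between hours was larger than the result itself for chromosomes 4, 11, 13 and 18, long neuronal genes, protocadherins and the 2-cell coefficient with gene number. For these, staying within the spread does not show that the value held. For likeness and state changes the spread was the SD over cells (0.232 for the 4-cell likeness of 0.478), so staying within it shows little. The 98 higher and 24 lower windows became 40 and 7 with RT in place of shares, 235 and 105 with windows of 1 Mb, 26 and 0 with windows of 5 Mb, 27 and 188 without centring, and 158 and 99 at a threshold of 15 points. With median centring 126 were higher and 8 lower. With only cells of score 37 to 63, an alternative chosen after seeing the data, 28 were higher and the SD over bins was 19.5 points in 4-cell and 17.0 in 2-cell embryos. The cause was not tested. Leaving out cells whose state never changed within a chromosome was also chosen after seeing the data, and moved no result.

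Leaving out each collection hour in turn gave 71 to 125 higher and 18 to 34 lower windows. The values closest to 0 for chromosomes 13 and 18, protocadherins and the 2-cell coefficient with gene number came without 2-cell blastomeres of 35 h, and that for long neuronal genes without 4-cell blastomeres of 54 h. Bins late at the 4-cell but early at the 2-cell stage made up 19.9 to 23.2%, and the reverse 7.14 to 8.37%. Chromosome means were 5.24 to 8.87 points for chromosome 11, 4.58 to 7.49 for 4, -7.29 to -4.03 for 13 and -6.80 to -2.95 for 18. List medians were 8.87 to 12.8 points for all genes, 26.98 to 33.7 for housekeeping, 23.6 to 28.98 for 2-cell genome activation, -11.1 to -5.73 for long neuronal genes and -23.2 to -8.94 for protocadherins. The SD over bins was 18.7 to 20.97 points in 4-cell and 13.8 to 15.5 in 2-cell embryos, and the Spearman coefficient with gene number 0.54 to 0.64 in 4-cell and 0.09 to 0.22 in 2-cell embryos. Likeness to the own stage was 0.418 to 0.503 in 4-cell and 0.258 to 0.277 in 2-cell blastomeres, and to the other stage 0.253 to 0.301 in 4-cell and 0.154 to 0.198 in 2-cell blastomeres. State changes per 100 Mb were 44.2 to 47.996 in 4-cell and 48.7 to 53.04 in 2-cell blastomeres.

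No paired analysis was possible because cell numbers only name cells and no result comes from a test. Embryo, female and collection day are not given for cells, and stage cannot be told apart from the within-stage scaling of bins.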
